A study of Homo sapiens with 16 samples.

Results

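The comparison is between the 2 triple-negative breast cancer lines of the study, MDA-MB-231 and Hs578T, in cells whose TWEAK receptor Fn14 had been knocked out. All 8 H3K27ac peak lists of Fn14 KO cells were taken, 4 per line, out of 16 lists in the series. They were not chosen by any measured value. Each line contributed 2 untreated lists and 2 lists of cells given TWEAK (10 ng/ml, 48 h in all, with fresh TWEAK at 24 h), and all cells had first been serum starved for 8 h. Both lines are established human cell lines. The knockout had been made with a lentiviral CRISPR vector carrying guides against Fn14, and knockout cells were picked by western blot and Sanger sequencing. The supplement calls its edited cells clones when it lists the genotyping primers, but the number of clones behind each list was not given in the sources used here. A difference between the lines cannot be told apart from one between the 2 derived knockouts. The other 8 lists came from control cells of the same lines and treatments, and were held back for a separate look at the regions found in Fn14 KO cells.

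H3K27ac is the acetylation of lysine 27 on histone H3, which marks active promoters and enhancers, and clusters of acetylated enhancers are often found at genes that define the identity of a cell. Fn14 is a small member of the TNF receptor family. It binds the cytokine TWEAK and signals through TRAF proteins to NF-κB and JNK, and the AP-1 factors downstream of JNK bind many enhancers. Comparing knockout cells sets the lines side by side with this receptor targeted in both. MDA-MB-231 and Hs578T are both counted among the mesenchymal type of breast cancer line, with vimentin and little E-cadherin.

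The regions that carry a line difference most firmly are those with a peak in all 4 Fn14 KO lists and all 4 control lists of one line and in none of the 8 lists of the other. The 2 such regions per line with the strongest peaks among chromosomes 1 to 7, 9 to 22 and X are shown by the 200 bases at their centre (hg38, + strand), with matches to 9 short motifs in capitals (stronger MDA-MB-231 regions on unplaced contigs are described further on by their values): TGANTCA of AP-1, GGAATG of TEAD, CAGGTG of ZEB and SNAI, AGATAA of the GATA factors, TGTGGT of RUNX, TGTTTAC of FOX, GGANTTTCC of NF-κB, TTGCNNAA of C/EBP and ACAATG of SOX, each on either strand.
MDA-MB-231, between genes on chromosome 2, nearest start CTNNA2 at 1153 kb, chr2:81481396-81481595: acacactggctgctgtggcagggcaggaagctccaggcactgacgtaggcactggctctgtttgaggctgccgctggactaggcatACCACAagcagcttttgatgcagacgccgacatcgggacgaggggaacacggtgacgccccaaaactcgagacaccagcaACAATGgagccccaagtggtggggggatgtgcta
MDA-MB-231, between genes on chromosome 2, nearest start ALKAL2 at 29.2 kb, chr2:317958-318157: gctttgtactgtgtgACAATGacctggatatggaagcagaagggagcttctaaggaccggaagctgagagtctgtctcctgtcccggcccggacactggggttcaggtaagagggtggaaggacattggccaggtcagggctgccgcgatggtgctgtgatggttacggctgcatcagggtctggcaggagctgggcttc
Hs578T, intron of STON2, chr14:81366077-81366276: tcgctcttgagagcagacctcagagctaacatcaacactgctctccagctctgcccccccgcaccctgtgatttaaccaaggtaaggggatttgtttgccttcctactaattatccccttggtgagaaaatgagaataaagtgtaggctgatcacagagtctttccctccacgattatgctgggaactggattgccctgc
Hs578T, 1.78 kb from a start of PRKAR1B, chr7:604361-604560: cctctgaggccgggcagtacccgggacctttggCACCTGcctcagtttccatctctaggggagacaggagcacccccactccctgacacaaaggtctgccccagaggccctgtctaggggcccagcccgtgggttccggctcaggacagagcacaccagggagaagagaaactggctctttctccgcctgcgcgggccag
Only the first of these centres held 2 motifs, of RUNX (ACCACA on this strand) and SOX, those of ALKAL2 and PRKAR1B held 1 each (SOX, and ZEB and SNAI as CACCTG), STON2 held none, and no centre held the AP-1 letters.

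Promoters with the same all-or-none pattern through both genotypes belonged to 4 genes, EVA1A and HS3ST3B1 in MDA-MB-231 and FRMD3 and ANXA10 in Hs578T, all 4 of which were in the RefSeq promoter table (GRCh38.p14). For EVA1A, a regulator of cell death and autophagy, and FRMD3, a FERM domain protein, a line-only region lay within 2 kb of 2 starts in the table, and the start with more motif matches is shown (the other held 1 match for EVA1A and 0 for FRMD3). The 300 bases span that start, on the gene's strand, with the same motifs in capitals.
EVA1A, chr2:75561280-75561579, minus strand: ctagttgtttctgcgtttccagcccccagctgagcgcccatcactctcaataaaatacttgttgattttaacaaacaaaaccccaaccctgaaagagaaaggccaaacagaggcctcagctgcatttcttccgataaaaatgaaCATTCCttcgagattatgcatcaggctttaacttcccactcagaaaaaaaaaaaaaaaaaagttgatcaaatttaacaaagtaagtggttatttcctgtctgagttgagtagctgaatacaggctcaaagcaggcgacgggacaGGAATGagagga
FRMD3, chr9:83267219-83267518, minus strand: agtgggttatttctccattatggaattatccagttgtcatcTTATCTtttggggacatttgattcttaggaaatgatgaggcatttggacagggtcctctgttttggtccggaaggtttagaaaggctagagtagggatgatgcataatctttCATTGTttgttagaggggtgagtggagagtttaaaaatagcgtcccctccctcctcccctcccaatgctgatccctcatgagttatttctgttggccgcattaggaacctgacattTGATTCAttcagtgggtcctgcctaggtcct
The EVA1A promoter held TEAD letters at 2 positions, once on each strand, which 14% of all 34943 RefSeq promoters hold at least once. The FRMD3 promoter held 1 match each to AP-1, GATA and SOX, which 7.72%, 10.4% and 10.8% of all promoters hold. Since both starts were picked for their matches, these shares are given for scale and not as a comparison.

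The 8 Fn14 KO lists held 39544 to 46295 peaks as deposited, and their sequencing depth is unknown. For all comparisons each list was trimmed to its best 39544 peaks by the −log10 q-value, the length of the shortest list, MDA-MB-231 untreated 2. The weakest peak kept had a −log10 q-value of 1.01 to 2.13 for the MDA-MB-231 lists and of 2.05 to 2.11 for the Hs578T lists. After trimming, MDA-MB-231 peaks still covered less, 69.3 ± 5.46 Mb (SD, n = 4) against 84.2 ± 0.814 Mb (SD, n = 4), with all 4 MDA-MB-231 lists below all 4 Hs578T lists (adjusted p = 0.0571, exact permutation test, two-sided, over 6 measures). The median peak width was 1343.1 ± 103 bp against 1580.5 ± 8.74 bp (SD, n = 4 each; adjusted p = 0.0571, exact permutation test). The share of peaks near a start site was 30.9% ± 0.125 against 31.2% ± 0.139 (SD, n = 4 each; adjusted p = 0.0571, exact permutation test). Unadjusted, each of these 3 differences had p = 0.0286, the smallest that 70 arrangements allow in the exact test. The direction for start sites depended on the trimming. Without it the share was 1.3 percentage points higher in MDA-MB-231 (adjusted p = 0.143, exact permutation test). MDA-MB-231 lists kept 111 to 128 peaks outside chromosomes 1 to 22 and X, and Hs578T lists 27 to 32. The part of list quality in the line differences was not tested.

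The target of the knockout was read first. TNFRSF12A, the gene of Fn14 (chr16:3018445-3022383, hg38), kept a strong promoter peak in every list. Its fold enrichment over local background was 20.9, 16.2, 18 and 16.2 in MDA-MB-231 Fn14 KO cells (untreated 1 and 2, then TWEAK 1 and 2) and 21.8, 22.3, 19.8 and 22 in Hs578T Fn14 KO cells. Peak lists carry no sequence, so these values do not check the edit, and the window is shared with CLDN6, HCFC1R1 and THOC6.

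None of the 78 genes on 5 marker lists (hormone receptors, epithelial and luminal, basal and myoepithelial, mesenchymal, stromal and contractile genes) had a promoter peak in all 4 lists of one line and none of the other, and 40 had one in all 8 lists and 26 in none. Line-only promoters were rare over all genes too, 106 of the 12727 genes with a promoter peak in any list, and 89.4% of those 12727 had a peak in all 8. Promoter peaks of VIM (vimentin) and ZEB1, a repressor of epithelial genes, were in all 8 lists, whereas CDH1 (E-cadherin), ESR1 and PGR had none in any. ERBB2 had a promoter peak in all 8. Among 32 markers of leukocytes, endothelium and hepatocytes, 19 had no promoter peak in any list and 6 had one in all 8. The loci of MMP1, POSTN and KRT14 had no base under a peak in any of the 16 lists, and those of CDKN2A, CDKN2B and MTAP had none in the 8 Fn14 KO lists of either line. No value here checks which line a list came from beyond the grouping of the lists themselves.

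The lists did separate by line. Pairs of lists of the same line shared a larger part of the bases under their peaks (Jaccard index, the shared bases over those in either list) than pairs of different lines. The index was 0.746 to 0.773 over the 6 pairs within MDA-MB-231, 0.803 to 0.814 over the 6 pairs within Hs578T, and 0.649 to 0.729 over the 16 pairs between lines, with no overlap of the ranges. The mean within lines exceeded that between lines by 0.0998 (p = 0.0286, exact permutation test over the 35 groupings of the 8 lists into 4 and 4, the smallest p they allow). With labels exchanged only within treatment the exact permutation p was 0.056, the smallest that design allows, so the call at 0.05 was lost. MDA-MB-231 untreated 1 had the highest index with the other line, 0.716 to 0.729 against 0.649 to 0.693 for the other MDA-MB-231 lists. The index is held down where the lists of a pair cover unlike numbers of bases. This list covered 77.1 Mb and the other MDA-MB-231 lists 64.2 to 68.4 Mb, against 83.3 to 85 Mb for Hs578T. The part of covered bases in these values was not tested.

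The merged peaks of the 8 lists formed 49314 regions. A peak was present in all 8 lists in 29550 of them (59.9%). A region was called line-only if all 4 lists of one line and none of the other had a peak there, which held for 832 MDA-MB-231-only regions (1.69% of the merged regions) and 1124 Hs578T-only regions (2.28%). Together these 1956 regions compare with 11 to 65 for the 34 other groupings of the 8 lists (p = 0.0286, exact permutation test, the smallest p the 35 groupings allow). Here too the exact permutation p was 0.056 with labels exchanged within treatment, again the smallest possible and above 0.05. Grouping by treatment gave 25 regions and grouping by replicate number gave 23. A further 465 regions had all 4 MDA-MB-231 lists and 1 Hs578T list, and 762 the reverse. The study's methods describe the ChIP-seq replicates as biological, while the labels give only a number, so these p-values measure the spread between the samples as labelled.

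**Figure D1:**
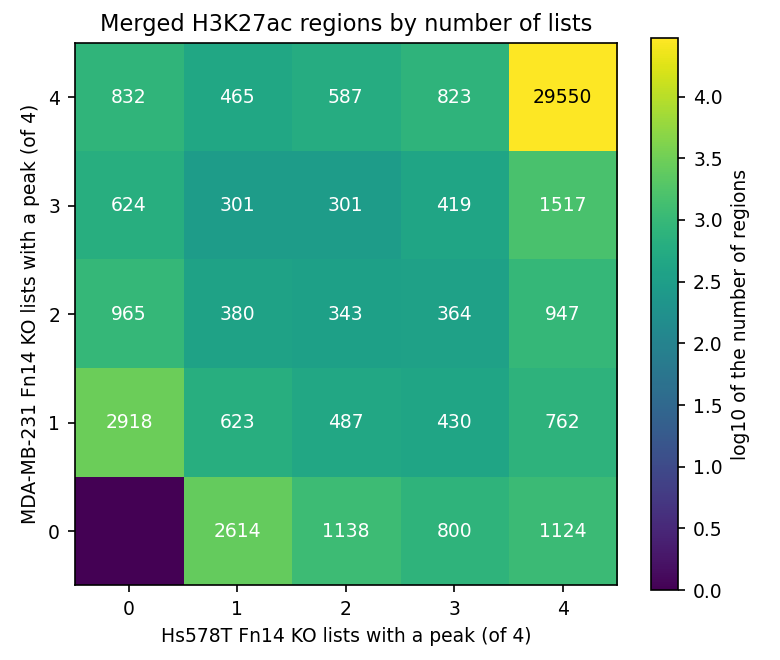
Number of merged H3K27ac regions by how many of the 4 Hs578T (horizontal axis) and 4 MDA-MB-231 (vertical axis) Fn14 KO lists hold a peak there, with the colour on a log10 scale. Most regions sit in the corner shared by all 8 lists (29550), and the line-only corners hold 832 and 1124.

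**Figure D2:**
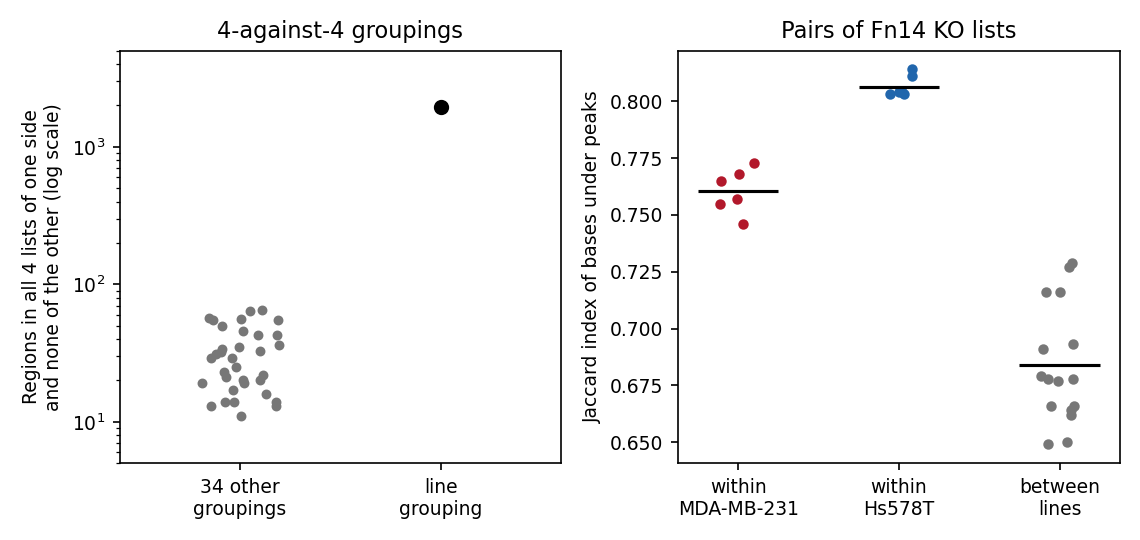
Left, regions exclusive to one side for each way to set 4 Fn14 KO lists against 4, on a log scale, where the line grouping lies at 1956 and the others at 65 or fewer. Right, the Jaccard index of each pair of Fn14 KO lists, with the mean of each kind of pair as a line, in which pairs between lines lie below both kinds of pair within a line.

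The size of the 2 sets depended on how the lists were made equal in length. Cut to the same number of covered bases instead of peaks, an alternative chosen after seeing the data that left 21497 to 22322 peaks in the Hs578T lists and 26213 to 39544 in the MDA-MB-231 lists, 3119 regions were MDA-MB-231-only and 55 were Hs578T-only, of which 192 of the 832 and 34 of the 1124 overlapped. The counts per line are therefore counts under trimming to equal peak number, and no line is said here to have more regions of its own. The members of the sets changed too. The annotation, chromosome, motif and control shares that follow describe the sets under this trimming.

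Line-only regions were narrower and weaker than shared ones and mostly lay away from start sites. The rule itself favours the differences in width and strength. A region in all 8 lists merges peaks that passed the cut in every list, and a line-only one has none in 4. Their median width was 1150.5 bp in MDA-MB-231 and 1194 bp in Hs578T, against 2399 bp for regions in all 8 lists and 1665 bp for all merged regions. The median fold enrichment of their peaks was 3.74 and 3.84, against 6.97. In the list where it was weakest, the peak reached a −log10 q-value of 10 in 21 of 832 and 27 of 1124 line-only regions, against 12262 of 29550 shared ones. Of MDA-MB-231-only regions, 5.65% lay within 2 kb of a protein-coding start (95% Wilson interval 4.27 to 7.43), 40.3% elsewhere in a gene and 54.1% between genes. For Hs578T-only regions the shares were 11.8% (95% Wilson interval 10.1 to 13.9), 49.6% and 38.5%. Among regions in all 8 lists 37.7% were near a start, and among all merged regions 27.1%. The intervals cover counting error only. The median distance from the centre of a line-only region to the nearest start was 50.7 kb in MDA-MB-231 and 26.9 kb in Hs578T.

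The strongest Hs578T-only region overlapped an exon of FAN1, a DNA repair nuclease (chr15:30920256-30925008). Its fold enrichment was 16.3, 14.9, 14.2 and 14.4 in the Hs578T lists, with no peak in any MDA-MB-231 Fn14 KO list. In control cells it had a peak in 3 Hs578T lists and 2 MDA-MB-231 lists. The next was at a start of CACNA2D4, a calcium channel subunit, with fold enrichments of 13.7, 12.3, 13 and 14.1 (chr12:1809143-1814077). In control cells it had a peak in 0 of 4 Hs578T lists and in 1 MDA-MB-231 list. A region 331 kb from FSIP2 on chromosome 2 reached 11.7, 11, 13.1 and 12.6 and was in none of the 8 control lists. The intron of STON2 (an endocytic adaptor) and the PRKAR1B region (a regulatory subunit of protein kinase A) completed the 5 strongest, and both were present in all 4 Hs578T control lists and no MDA-MB-231 one. Of the 5, the FSIP2 region alone was absent from all 8 control lists.

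In MDA-MB-231 the 5 strongest line-only regions were all on unplaced or unlocalized contigs of hg38. On contig Un_KI270337v1 the −log10 q-value was 77.9, 98.2, 80.0 and 52.1 in the 4 MDA-MB-231 lists, with no peak in Hs578T. All 5 had a peak in every MDA-MB-231 control list and in at most 1 Hs578T control list. In all, 53 of the 832 MDA-MB-231-only regions and 0 of the 1124 Hs578T-only regions lay off chromosomes 1 to 22 and X, 20 of them on contig 14_GL000225v1_random. On the assembled chromosomes, the strongest were a region on chromosome 2 in the gene-poor stretch beyond CTNNA2 (chr2:81480511-81482481, weakest −log10 q-value 19.9), one 469 kb from HAS2, a hyaluronan synthase, and one 891 kb from AUTS2. The first was in no Hs578T control list, and the other 2 were in all 4. These 3 were picked after the values had been seen, since the rule for naming regions gave the contigs.

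Line-only regions of one line that followed each other with no other merged region between them ran to at most 4. In MDA-MB-231 such runs of 4 included one of 102 kb inside PAPPA and one of 399 kb between genes on chromosome 7. In Hs578T they were in AGBL4 (287 kb) and WWC2 (69.2 kb). Most of the others were pairs, 50 in MDA-MB-231 and 54 in Hs578T.

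Some chromosomes leaned to one line in the Fn14 KO lists. Chromosome 4 held 150 Hs578T-only regions against 17 MDA-MB-231-only ones among its 2725 merged regions, and chromosome 10 held 105 against 35 among 2469. Chromosome 19 had 31 against 7 among 1756. Its Hs578T-only share of 1.77% was below the 2.28% of all merged regions, and its MDA-MB-231-only share was 0.399% against 1.69%. Chromosome 8 leaned the other way with 29 against 55 among 2140, as did X with 22 against 35 among 1313. Within chromosome 4, the 10 Mb from 110000001 to 120000000 held 21 Hs578T-only regions and 0 MDA-MB-231-only ones among 152 merged regions. On chromosome 7 the 20 Mb from 30000001 to 50000000 held 16 MDA-MB-231-only regions in each of its 10 Mb windows and no Hs578T-only one. These windows had 147 and 237 merged regions. The first 10 Mb of chromosome 7 held 16 Hs578T-only regions and 0 MDA-MB-231-only ones among 213. Peak lists give no copy number, and its part in these counts was not tested. Whether the leaning holds in control cells was not tested either. Of the Hs578T-only promoters on chromosome 4, those of UGT8, UGT2B7, TRIML2 and NAP1L5 had a peak in all 4 MDA-MB-231 control lists. The others on that chromosome had one in 0 to 3 of these lists.

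**Figure D3:**
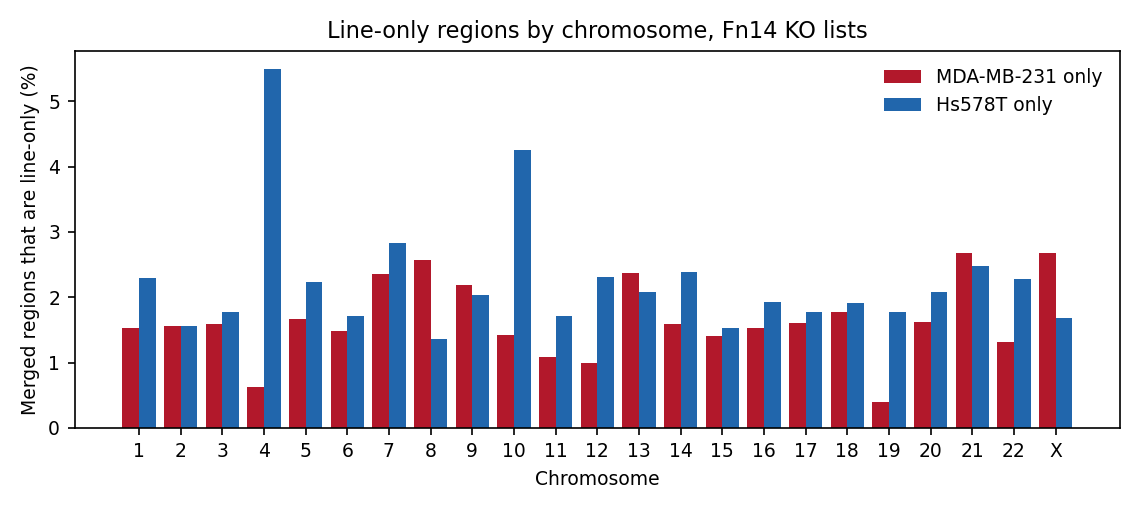
Share of the merged regions of each chromosome that were MDA-MB-231-only or Hs578T-only in Fn14 KO cells, in percent. Chromosomes 4 (5.5% Hs578T-only) and 10 (4.25%) stand above the rest for Hs578T.

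Few promoters were line-only. Of 20046 protein-coding genes, 12727 had a peak within 2 kb of a start in at least 1 Fn14 KO list and 11380 had one in all 8. A line-only promoter was found for 29 genes in MDA-MB-231 (0.228% of the 12727) and 77 in Hs578T (0.605%). In 28 of the 29 and 72 of the 77 the window held a line-only region. The 6 genes without one were HS3ST3B1 in MDA-MB-231 and FSD2 (which shares its window with WHAMM), ANXA10, PPP1R14D, SIX3 and MFNG in Hs578T. At FSD2 a mean of 6.23 kb of the locus lay under MDA-MB-231 peaks and 6.47 kb under Hs578T peaks, whereas MFNG had 0 kb in all 4 MDA-MB-231 lists and 0.44, 0.43, 1.17 and 1.99 kb in those of Hs578T. In control cells 2 of the 29 and 2 of the 77 were again line-only.

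The 10 strongest MDA-MB-231-only promoters had modest peaks. They belonged to LGALS9B and LGALS9C, galectin genes so alike in sequence that reads may be split between them, SLC38A7 (a glutamine transporter), TPRX2, BEX2, HOXA3, SLITRK4, GBP5 (an interferon-induced GTPase), NLRP3 (the inflammasome sensor) and ADAMTS14 (a procollagen protease). At NLRP3 the fold enrichment was 4.50, 3.72, 3.89 and 3.91 in MDA-MB-231, and at GBP5 it was 3.73, 4.32, 5.69 and 3.99, with no Hs578T peak at either. Both had a promoter peak in 2 of the 4 Hs578T control lists, and in the control lists the GBP5 locus had bases under peaks with TWEAK alone, 1.56 and 1.86 kb in MDA-MB-231 and 1.00 and 1.02 kb in Hs578T.

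Hs578T-only promoters reached higher. Besides FSD2 and ANXA10, the 10 strongest were those of CACNA2D4, NTF3 (neurotrophin-3), FAM24B, OR2M5 (an olfactory receptor), UGT8 (a galactosyltransferase of myelin lipids), FRMD3, PPP1R14D and ZNF660. The NTF3 promoter had fold enrichments of 12.3, 7.86, 10.3 and 8.53 in Hs578T and none in MDA-MB-231, and its locus carried 11.2 kb under peaks against 1.71 kb (means of 4 lists). OR2M5 and UGT8 had no base under a peak in any MDA-MB-231 Fn14 KO list, against means of 8.47 and 2.49 kb in Hs578T. In control cells, by contrast, both promoters had peaks in all 8 lists, with 4.45 to 7.14 kb at OR2M5 and 1.26 to 2.05 kb at UGT8 in MDA-MB-231. The empty promoters were thus found in the MDA-MB-231 Fn14 KO lists among the 16. No other list lacked a promoter peak at either gene.

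Across 16 gene lists with 354 genes, 5 genes had a line-only promoter, 2 in MDA-MB-231 and 3 in Hs578T, against 29 and 77 of the 12727 genes with any promoter peak, so that nothing is read from the count. MDA-MB-231 alone had HOXA3 and TBX3, and Hs578T alone had HOXB2 and HOXC5 among others, genes of homeobox and T-box factors of development. Their peaks were weak. TBX3 had fold enrichments of 3.50, 3.15, 3.50 and 3.28 and HOXC5 3.68, 3.6, 3.71 and 3.29 in the line that had them. Of the 39 HOX genes 24 had no promoter peak in any list and 7 had one in all 8, and of 55 other developmental factors 25 had none and 23 had one in all 8. HOXA3 (4 MDA-MB-231 and 2 Hs578T control lists) and HOXC5 (3 and 4) were not line-only in control cells, and neither were TBX3 (0 and 1) and HOXB2 (1 and 2). Of the TWEAK and NF-κB genes 23 of 24 had a promoter peak in all 8 lists and none was line-only, and of the AP-1 genes 13 of 16 had one in all 8. These counts are near the 89.4% of genes with any promoter peak that had one in all 8.

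Coverage of whole loci gave a wider view. For each gene the bases under peaks in the gene body and 10 kb either side were counted, and a gene was called where the 4 values of the lines did not overlap and the means differed by at least 2 kb. This called 93 of 15780 genes higher in MDA-MB-231 (0.589%) and 2089 higher in Hs578T (13.2%). Since Hs578T lists cover more bases in all, the values were also expressed per 70 Mb under peaks, which was chosen after seeing the data. Then 391 genes were higher in MDA-MB-231 (2.48%) and 581 in Hs578T (3.68%), so that the Hs578T share of calls moved from 95.7% to 59.8%.

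The largest differences towards MDA-MB-231 were at PAPPA, PDE1C, CDH13, HS3ST3B1 and RUNX2. PAPPA, a protease that frees insulin-like growth factors from a binding protein (chr9:116153791-116402321), carried 21.6, 18.5, 20.5 and 19.6 kb under peaks in MDA-MB-231 and 0.70, 0.73, 1.80 and 1.46 kb in Hs578T. PDE1C, a cyclic nucleotide phosphodiesterase, carried 14.1, 13.1, 12.8 and 13.9 kb against 0 in all 4 Hs578T lists. The groups lay far apart at both. HS3ST3B1, a heparan sulfate sulfotransferase, had 7.84 ± 0.444 kb against 0.368 ± 0.0945 kb (SD, n = 4 each). CDH13 (T-cadherin) had 18 ± 0.815 kb against 10.2 ± 1.10 kb, and RUNX2, a bone transcription factor, 45.6 ± 4.05 kb against 39.1 ± 1.98 kb. In control cells PAPPA, PDE1C and HS3ST3B1 kept the lines apart. PAPPA had 15.6 to 29.7 kb against 0.61 to 1.57 kb, and PDE1C 6.21 to 13.8 kb against 0 to 0.93 kb. HS3ST3B1 had 6.40 to 7.83 kb against 0.85 to 1.68 kb. The values of CDH13 and RUNX2 overlapped when both treatments were pooled. RUNX2 also overlapped within each treatment. CDH13 overlapped untreated but not with TWEAK, at 18.2 and 19.0 kb in MDA-MB-231 against 17.0 and 16.3 kb in Hs578T.

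The largest differences towards Hs578T included AOPEP, NRP1, DNMBP and HMGA2, all of which had a promoter peak in all 8 lists. NRP1, a co-receptor of semaphorins and VEGF, carried 105.0, 90.6, 87.9 and 91.3 kb in Hs578T and 61.5, 49.8, 58.7 and 53.4 kb in MDA-MB-231. HMGA2, a chromatin protein of embryonic and tumour cells, carried 74.6 ± 5.71 kb against 46.7 ± 10.1 kb (SD, n = 4 each). These 4 were also called per 70 Mb under peaks. In control cells the 2 lines overlapped at each of them when both treatments were pooled. Without scaling, the lines stayed apart within each treatment at NRP1 (2 lists per line). Untreated, it carried 56.9 and 75.8 kb in MDA-MB-231 against 78.4 and 95.4 kb in Hs578T. With TWEAK it carried 57.5 and 58.0 kb against 60.2 and 69.1 kb. DNMBP and HMGA2 were apart with TWEAK only, and AOPEP overlapped in both treatments. These control values are not per 70 Mb under peaks. With TWEAK the control lists covered 71.6 and 74.3 Mb in MDA-MB-231 against 75 and 79.4 Mb in Hs578T. Whether the lines stay apart with scaling was not tested.

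**Figure D4:**
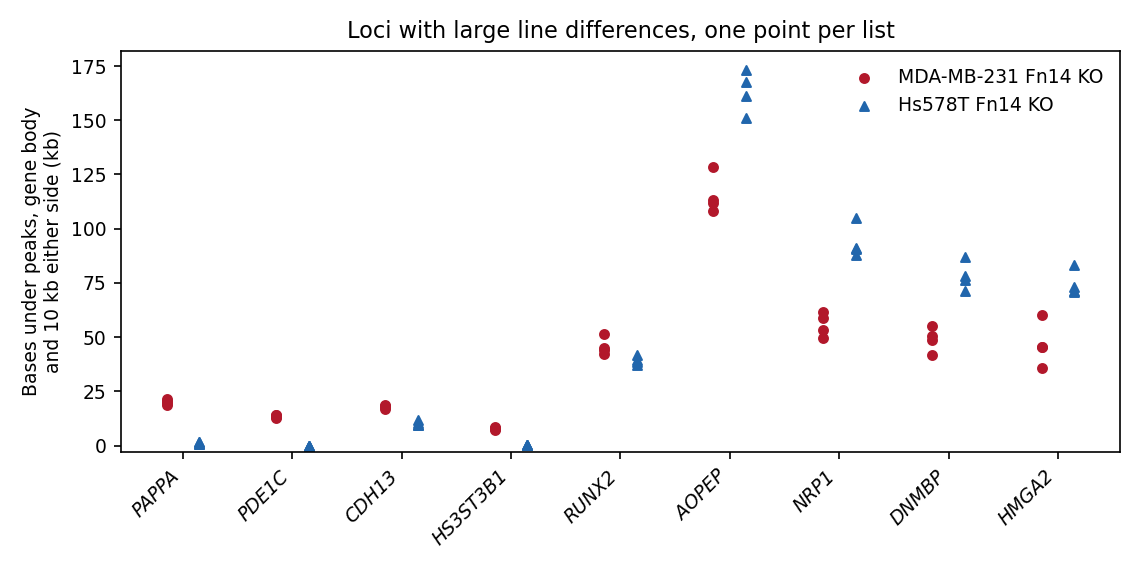
Bases under peaks (kb) in the gene body and 10 kb either side for loci named by the size of their difference, 1 point per Fn14 KO list, circles for MDA-MB-231 and triangles for Hs578T. PAPPA, PDE1C and HS3ST3B1 are close to 0 in Hs578T, whereas the loci higher in Hs578T are well covered in both lines.

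Epithelial genes leaned to Hs578T. Per 70 Mb under peaks, 6 of 20 epithelial and luminal genes were higher in Hs578T and 0 in MDA-MB-231 (background 3.68% and 2.48% of all genes). KRT8, a keratin of simple epithelia, had promoter fold enrichments of 46.4, 45.7, 42.0 and 40.7 in Hs578T and 20.4, 15.9, 18.2 and 14.8 in MDA-MB-231, with no overlap. All 6 were also called without scaling, and the values here are without it. The CDH1 locus carried 18.2, 14.9, 21.2 and 13.2 kb in Hs578T against 8.84, 6.94, 7.12 and 5.91 kb in MDA-MB-231, although its promoter had no peak in any list. KRT7, KRT18 (which shares its window with KRT8) and the epithelial transcription factors ELF3 and GRHL2 made up the 6, for example KRT7 with 26.5 ± 0.617 kb against 14.5 ± 2.48 kb (SD, n = 4 each). In control cells all 6 overlapped between the lines when both treatments were pooled. Within each treatment CDH1 and ELF3 were higher in both Hs578T lists than in both MDA-MB-231 lists. Untreated, CDH1 carried 7.11 and 8.72 kb in MDA-MB-231 against 9.2 and 11.5 kb in Hs578T. With TWEAK it carried 5.0 and 5.1 kb against 8.14 and 8.36 kb. KRT7 kept the lines apart untreated only, KRT18 with TWEAK only, and KRT8 and GRHL2 in neither treatment. Of 19 mesenchymal genes, 2 were higher in MDA-MB-231 (FN1 and MSN) and 0 in Hs578T by the same measure, but neither was called without scaling, and MSN was then 21.4 kb in MDA-MB-231 against 22.5 kb. Growth factors and their receptors gave 6 of 39 higher in Hs578T (among them TGFA, EREG and PDGFC) and 2 in MDA-MB-231 (NRG1 and IGF1R, not called without scaling). Integrins gave 4 of 19 and 2. Of the TWEAK and NF-κB genes, 2 of 24 were higher in Hs578T (MAPK8 and MAPK9, the JNK kinases) and 1 in MDA-MB-231 (TRAF1, not called without scaling). For ribosomal protein genes, 2 of 80 were higher in Hs578T and 3 in MDA-MB-231.

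Large domains, made by joining neighbouring peaks and kept where the ranked curve of bases under peaks turns steep, numbered 1048 to 1609 per MDA-MB-231 list and 1248 to 1418 per Hs578T list. Of 1886 merged domains, 822 were large in all 8 lists, 30 in all 4 of MDA-MB-231 alone (1.59%) and 62 in all 4 of Hs578T alone (3.29%). Nearly all held peaks in the other line too: 27 of the 30 and 61 of the 62 had a peak in all 4 of its lists. The exceptions were 3 domains on contigs in MDA-MB-231 and, in Hs578T, a domain on chromosome 1 beside OR2M5 (chr1:248115078-248144949), with 11.7, 10.5, 11.1 and 11 kb under peaks in Hs578T and 0 in all 4 MDA-MB-231 lists. The Hs578T-only domain with the largest difference held INSIG1, a regulator of cholesterol synthesis (19.4 to 21.1 kb against 6.38 to 8.46 kb).

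AP-1 letters occurred in a larger share of MDA-MB-231-only regions, which was not tested. Away from start sites and on chromosomes 1 to 22 and X, TGANTCA occurred in the central 500 bp of 53.1% of 732 MDA-MB-231-only regions, 40.1% of 991 Hs578T-only regions and 43.3% of all 35811 such regions. With start sites and contigs included the shares were 49.3%, 38.8% and 35.1%. FOX letters leaned the other way, 7.79% against 12.6%, with 9.93% of all, as did those of ZEB and SNAI, 26.6% against 34.1%, with 31.6% of all. NF-κB letters occurred in 3.83% and 3.03%, with 2.72% of all. TEAD, GATA, RUNX, C/EBP and SOX shares lay within 4 percentage points of each other in the 2 sets. The median GC content of these windows was 42.8% and 45%, with 44% over all. A match is a description of the letters and shows no binding.

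The control lists, which had no part in choosing the regions, carried the line difference over in part. Of MDA-MB-231-only regions, the control lists of that line had a peak at 67.8% ± 3.91 (SD, n = 4) and those of Hs578T at 38.3% ± 10.9 (SD, n = 4). Of Hs578T-only regions, the control lists of Hs578T covered 50.1% ± 16.6 (SD, n = 4) and those of MDA-MB-231 23.3% ± 9.21 (SD, n = 4). In both sets all 4 lists of the line itself lay above all 4 of the other line, for Hs578T-only regions by a narrow margin, 33.8% against 32.9% at the nearest (adjusted p = 0.0286 for each set, exact permutation test, two-sided, the smallest p that 70 arrangements allow). Leaving out any MDA-MB-231 control list or Hs578T untreated 2 ended these calls, with an adjusted p of 0.0571 or 0.114 in the exact permutation test. At least 1 control list of the other line had a peak in 524 of the 832 regions (63.0%) and in 517 of the 1124 (46.0%). Only 101 (12.1%) and 106 (9.43%) were line-only in the control lists too, which a region gained or lost with TWEAK in control cells of either line could not be.

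TWEAK moved the 2 sets in opposite directions in control cells of both lines. The share of MDA-MB-231-only regions with a peak was 64.5% untreated and 71.0% with TWEAK for MDA-MB-231 control cells, and 29.6% and 46.9% for those of Hs578T (means of 2 lists). For Hs578T-only regions it was 31.1% and 15.4% in the former and 64.1% and 36% in the latter. In each line both TWEAK lists lay above both untreated lists for the first set and below them for the second. The MDA-MB-231-only share minus the Hs578T-only share within a list rose with TWEAK by 33.8 percentage points on average over the 2 lines, a comparison added after seeing the data (p = 0.056, exact permutation test with labels exchanged within line, the smallest p its 36 arrangements allow, so that none could pass 0.05). Over all merged regions TWEAK changed the share by -3.12 percentage points. Taking only the regions of the other line, as planned, the mean change was 0.78 percentage points (p = 1, exact permutation test), with values of opposite sign for the 2 sets of regions. Of MDA-MB-231-only regions, 128 (15.4%) were gained with TWEAK in Hs578T control cells and 30 (3.61%) lost, against 2.68% and 4.48% of all merged regions. Of Hs578T-only regions, 221 (19.7%) were lost with TWEAK in Hs578T control cells and 22 (1.96%) gained.

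**Figure D5:**
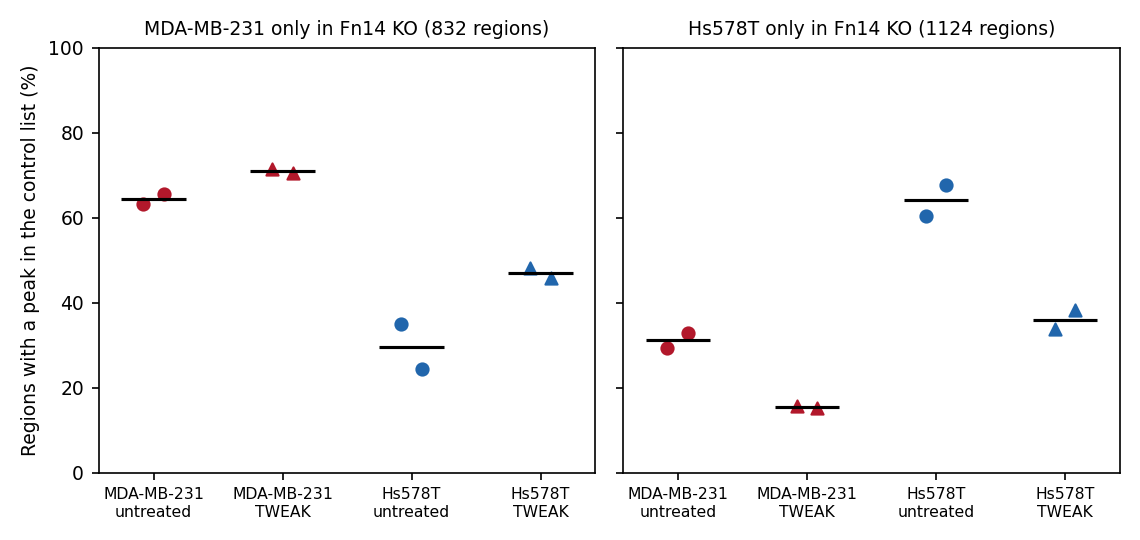
Percentage of MDA-MB-231-only (left) and Hs578T-only (right) regions of Fn14 KO cells with a peak in each of the 8 control lists, circles untreated and triangles TWEAK, with the mean of each pair as a line. TWEAK lists lie higher than untreated ones on the left and lower on the right in both lines.

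The same all-or-none rule over 4 lists against 4 set these counts in scale. Lines differed at 1956 of 49314 merged regions (3.97%) in Fn14 KO cells and at 745 of 51000 (1.46%) in control cells. TWEAK against untreated, with both lines on each side, gave 25 regions (0.0507%) in Fn14 KO cells and 2167 (4.25%) in control cells. Within a line, Fn14 KO against control gave 523 regions (MDA-MB-231) and 684 regions (Hs578T). In control cells the treatment grouping thus held more exclusive regions than the line grouping, and in Fn14 KO cells fewer. The rule asks untreated and TWEAK lists of a line to agree. A region that changed with TWEAK in either line could therefore not be line-only, which limits the line count in control cells. By how much was not tested. Pairwise, TWEAK-treated control lists of the 2 lines had a Jaccard index of 0.746 to 0.757, and untreated ones 0.709 to 0.749. Untreated and TWEAK control lists within one line had 0.693 to 0.724, below the first range and overlapping the second. Differences between these counts were not tested.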

How the data were processed

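H3K27ac ChIP-seq peak lists of 16 samples were used, 8 of them from Fn14 KO cells, grouped by their titles. Per the study's methods, the authors used Trimmomatic for trimming, Bowtie2 for alignment to hg38 and MACS2 for peaks against input, then dropped blacklisted regions, and deposited 1 list per sample. Versions are not given in the sources used here. Each deposited list holds per peak a score, a fold enrichment ratio over local background, a −log10 p-value and a −log10 q-value, as the authors' peak caller wrote them. Reads are not held, so depth is unknown and precision rests on the agreement of lists.

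Lists were trimmed to 39544 peaks by the −log10 q-value and merged at 1 bp shared (Python 3.11.15, pandas 2.3.3, scipy 1.17.1). Protein-coding genes came from the GENCODE 44 annotation, with coordinates 1-based. Line groupings were tested by exact permutation over the lists, with Benjamini-Hochberg adjustment over 6 measures and 2 region sets and a threshold of 0.05. Genes and regions named were, per line, the 10 strongest line-only promoters by the weakest of 4 lists, the 5 largest locus differences, every list gene with a line-only promoter, the 5 strongest line-only regions and the 3 longest runs. Other genes named from the lists, such as the keratins, were chosen after their values were seen. Members and lists were chosen with earlier results of these data known. Alternatives were other trimming, bins, distances, left-out lists and a replicate block. The scripts were tested on simulated data. Of the genes the naming rule picks, 2 are not reported here.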

Additional observations from a re-analysis of the deposited data

Results flagged for a closer look

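Regions that were line-only in Fn14 KO cells moved in opposite directions with TWEAK in control cells of the other line. The share of MDA-MB-231-only regions with a peak in Hs578T control lists differed by 17.3 percentage points between TWEAK and untreated lists, and that of Hs578T-only regions in MDA-MB-231 control lists by -15.7 percentage points. Both TWEAK lists lay on one side of both untreated lists in each line. The sets of regions differ as well as the lines, and the difference between the 2 values was not tested. No list stood apart from the other 3 of its line in 36 groups of 4 values examined, where chance flags about 1 group in 20.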

How the results depend on the processing

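Line-only regions, 1956 in all, numbered 2206 to 2363 when 1 list was left out, since fewer lists had to agree, with 907 to 1024 MDA-MB-231-only and 1260 to 1391 Hs578T-only and p = 0.0286 in the exact test each time. The difference in the Jaccard index was then 0.0898 to 0.121. Without trimming, 1804 regions were Hs578T-only, and with only peaks of −log10 q-value 2 or more, 483 were MDA-MB-231-only. In 500 bp bins there were 11518 line-only bins (2475 and 9043), since a wider peak in one line also counts there. With the untreated lists alone 4263 regions were exclusive (1866 and 2397) and with the TWEAK lists alone 4159 (1690 and 2469), both at p = 0.333 in an exact test that 3 groupings limit to that value. At the same number of covered bases, chosen after seeing the data, the counts were 3174 in all, 3119 in MDA-MB-231 and 55 in Hs578T, so that the balance between the lines rests on the trimming. With labels exchanged within treatment the exact p was 0.056 for the regions and for the Jaccard difference of 0.0998, and under the replicate block, exchanging labels within pairs of the same treatment and number, 0.125 for both and for the shares in control lists (29.5 and 26.8 percentage points), the smallest these designs allow. The block changed no other call, and the numbers did not pair the lists: the correlation of replicate differences between lines was -0.00589 untreated and -0.00492 with TWEAK over 49314 regions. Leaving out 1 control list gave 24.8 to 32.7 and 20.9 to 32.2 percentage points, with adjusted p up to 0.0571 and 0.114. Leaving out MDA-MB-231 untreated 1 or TWEAK 1 took covered bases, width and start-site share past the threshold (adjusted p = 0.0429, exact permutation test), with peak number in the former case and median fold enrichment in the latter. Ranges over left-out lists were -5068 to -2818 for peaks as deposited, -0.242 to -0.146 for median fold enrichment, -17.4 to -13.2 Mb for covered bases, -286 to -205 bp for width, -0.420 to -0.302 percentage points for the start-site share, -185 to 1.75 for the number of large domains, -1.89 to 3.45 percentage points for the other line's regions with TWEAK, and 29.3 to 38.4 percentage points for the contrast of the 2 sets. Counts over left-out lists were 31 to 39 and 82 to 94 for promoters, 77 to 123 and 1936 to 2731 for loci, and 31 to 46 and 62 to 102 for large domains, the highest without MDA-MB-231 untreated 2 (46) and without MDA-MB-231 TWEAK 2 (102). Without trimming there were 17 MDA-MB-231-only promoters, and the start-site share was 1.3 percentage points higher in MDA-MB-231, opposite in sign to the trimmed lists. Gene bodies alone gave 1345 loci higher in Hs578T, and coverage per bases under peaks gave 391 and 581. Joined at 5 kb, 50 large domains were MDA-MB-231-only. Start sites and contigs included, the AP-1 share of MDA-MB-231-only regions was 1.26 times that of all regions in 1000 bp windows, against 1.40 times in 500 bp. Peak lists give no depth, so an absent peak shows no absence of acetylation.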
